A study of Mus musculus with 8 samples.

Results

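Genes of tumour macrophages and monocytes, 43 in all, were followed across 4 groups of sorted mouse tumour cells. They were chosen by symbol from a list of myeloid lineage genes, Fc receptors, lectins, lysozymes and activation markers, and are described here on 1 probe set each, the one with the highest mean over the 8 arrays. Of the 43, 42 had a probe set that the platform annotation gives to 1 gene, among 18193 genes named in this way. Of those, 37 passed the filter on low values (a log2 signal above 5 on at least 2 arrays), among 12177 genes tested. Fcgr1, Marco, Vsig4, Chil3 and Clec10a did not pass, and Clec12a is named only. Of the 37, Aif1, Cd163 and Arg1 were above 5 in 1 group of arrays only, so their passing depended on that group.

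Mouse LLC (Lewis lung carcinoma) and colon26 (colon carcinoma) tumours were the source of the cells. Both lines stably carried enhanced green fluorescent protein (EGFP) under the mouse PSF1 promoter, so every group carries this reporter. PSF1, encoded by Gins1, is a subunit of the GINS complex of replication forks. LLC-PSF1P-EGFP cells had grown subcutaneously in mice for 4 weeks and colon26-PSF1P-EGFP cells for 2 weeks. The dissociated tumours were sorted by FACS into EGFP-low and EGFP-high cells, with 2 arrays numbered 1 and 2 in each of the 4 groups. The labels call the numbers biological replicates without saying whether they are separate tumours or mice, so p-values measure the spread among these arrays, which may be technical. The sources used here give no mouse strain or age, no number of clones behind a line and no gate against host blood cells. In the description field LLC is written for all 4 colon26 samples, but colon26 stands in their titles, sources and cell line fields, which were followed.

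Macrophages develop from monocytes under the growth factor receptor Csf1r and the transcription factor PU.1 (Spi1). They take up particles through Fc, scavenger and lectin receptors, and in tumours are host cells that lie among the cancer cells. Some carry genes of tissue-resident cells, such as the haemoglobin scavenger receptor Cd163, the folate receptor Folr2 and the clearance receptor Stab1. Others carry genes induced by interleukin 4, such as arginase (Arg1) and the mannose receptor Mrc1, or inflammatory genes such as Il1b. In sorted bulk samples, fewer macrophages and less RNA per macrophage cannot be told apart.

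Gins1 followed the sort, with log2 signals of 7.23 and 7.14 on the low and 8.42 and 8.51 on the high arrays of LLC, against 7.56 and 6.97 (low) and 8.29 and 8.38 (high) for colon26. The epithelial keratin Krt8 lay between 12.36 and 12.80 on the LLC arrays and between 5.31 and 5.95 on those of colon26. Krt18 lay between 8.43 and 9.14 in LLC and between 3.84 and 5.05 in colon26. Of the other epithelial genes, Epcam lay between 5.99 and 7.18 and Cldn4 between 4.39 and 5.43 over all 8 arrays. Cdh1, Krt19 and Cldn7 were below 5 on all 8 arrays. Within each group, the arrays numbered 1 and 2 stood apart in how evenly transcripts were read along their length. For 4 control transcripts, the median excess of the 3′ over the 5′ probe set (log2) ran from 2.41 to 2.70 on the arrays numbered 1 and from -0.01 to 0.35 on those numbered 2. Each high array was therefore compared with the low array of its line and number. The words rose and fell are kept for a gene whose Benjamini-Hochberg adjusted p over the 12177 genes was under 0.05 by limma, the pair being a block.

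Promoters of 5 members that fell in both lines are shown. Genes and windows were picked for holding the core of the motif of PU.1, the factor encoded by the member Spi1. Its presence in these 5 is therefore not a result, and a link to their falls was not tested. The change of Lyz1 cannot be told apart from that of Lyz2, as described with these genes. Sequences are from RefSeq, mouse build GRCm38.p6, which holds a promoter window for 32 of the 43 members. Each shows the 250 bases before the gene's start, 5′ to 3′ in the direction of the gene, with the capitals marking GGAAGT or its reverse complement.
Lyz1: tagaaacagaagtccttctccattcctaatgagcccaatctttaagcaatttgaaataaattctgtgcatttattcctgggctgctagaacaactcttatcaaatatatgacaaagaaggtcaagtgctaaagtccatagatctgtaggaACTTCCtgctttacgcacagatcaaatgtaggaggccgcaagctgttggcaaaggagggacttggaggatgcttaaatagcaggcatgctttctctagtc
Lyz2: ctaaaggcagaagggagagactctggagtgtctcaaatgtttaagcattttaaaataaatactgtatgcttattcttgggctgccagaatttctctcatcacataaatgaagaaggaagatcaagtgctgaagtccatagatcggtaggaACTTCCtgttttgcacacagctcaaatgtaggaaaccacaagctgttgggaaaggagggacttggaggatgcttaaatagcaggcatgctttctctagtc
Selenop: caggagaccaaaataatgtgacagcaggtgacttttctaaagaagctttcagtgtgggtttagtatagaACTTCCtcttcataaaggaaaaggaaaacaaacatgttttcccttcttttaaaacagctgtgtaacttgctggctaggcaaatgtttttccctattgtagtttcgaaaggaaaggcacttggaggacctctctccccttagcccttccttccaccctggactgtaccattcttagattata
Pf4: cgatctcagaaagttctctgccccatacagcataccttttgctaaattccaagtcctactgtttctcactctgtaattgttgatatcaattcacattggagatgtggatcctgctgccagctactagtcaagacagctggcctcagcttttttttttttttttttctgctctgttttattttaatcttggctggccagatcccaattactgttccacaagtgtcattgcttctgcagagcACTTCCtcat
Mrc1: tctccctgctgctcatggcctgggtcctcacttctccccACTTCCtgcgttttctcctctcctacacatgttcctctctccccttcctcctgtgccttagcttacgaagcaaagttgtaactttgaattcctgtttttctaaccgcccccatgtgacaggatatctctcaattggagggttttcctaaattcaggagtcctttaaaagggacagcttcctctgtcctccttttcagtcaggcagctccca
They lie at chr10:117292869-117293118, minus strand (Lyz1), chr10:117282273-117282522, minus strand (Lyz2), chr15:3270517-3270766, plus strand (Selenop), chr5:90772185-90772434, plus strand (Pf4) and chr2:14229164-14229413, plus strand (Mrc1). The match begins 100 bases before the start in both Lyz1 and Lyz2, 181 before it in Selenop, 10 before it in Pf4 and 211 before it in Mrc1. The Lyz1 and Lyz2 stretches, which belong to neighbouring lysozyme genes, were identical at 205 of 260 aligned positions (78.8%). In windows of 300 bases, which add 50 bases after the start, GGAAGT was found on either strand in 20 of the 32 members and in 23.77% of all 32851 windows. The longer GAGGAAGT, which contains GGAAGT, was found in 5 members (Cd53, Fcgr4, Pf4, Retnla and Selenop) and in 3.20% of all windows. Of the 12 members that fell in both lines 9 had a window, and 7 of these held GGAAGT. The C/EBP site TTGCGCAA was in 1 member (Clec12a) and in 0.18% of windows. The AP-1 site TGAGTCA was in 4 members and 5.20% of windows, and TATAAA in 9 members and 13.62% of windows. A match here is a description of letters and not a bound site. Several members have more than 1 window, so shares of members and of windows have different denominators.

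In LLC, 15 of the 37 tested members fell in EGFP-high cells and 0 rose, where 6.04% of all genes tested fell and 4.98% rose. In colon26, 22 of 37 fell and 0 rose, where 1.58% of all genes fell and 2.18% rose. The median change of the 37 was -0.82 in LLC and -1.78 in colon26, against 0.04 and 0.08 over all genes. As a mean of the lines 29 of 37 fell and 0 rose, where 5.57% of all genes fell and 7.47% rose. The falls in both lines were of 12 genes: Csf1r, Cd68, Cd53, Fcgr3, Fcer1g, Tyrobp, Lyz1, Lyz2, Ms4a6d, Selenop, Pf4 and Mrc1, which are 80.0% of the LLC and 54.5% of the colon26 calls. A further 3 passed in LLC and not in colon26 (Cd52, Arg1 and Clec4d), 10 passed in colon26 and not in LLC, and 12 passed in neither line. Without the pair as a block, limma called 0 members in LLC (14 at an unadjusted p under 0.05), 2 in colon26 (Lyz2 and Fcgr3) and 3 as a mean of the lines (these and Lyz1), so nearly all of these calls rest on the pairing. In 6 of the LLC falls and 8 of the colon26 falls the mean of the high arrays was under 5, near background, which bounds the size of a fall from below. The calls for Csf1r and Fcgr2b in LLC and for Laptm5 in both lines depended on the probe set, as described with these genes. The fall of Lyz1 cannot be told apart from that of Lyz2. In LLC the calls for Fcer1g and Cd52 ended after quantile normalization and with only the 4 LLC arrays fitted. That for Fcer1g also ended with no filter.

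**Figure D1:**
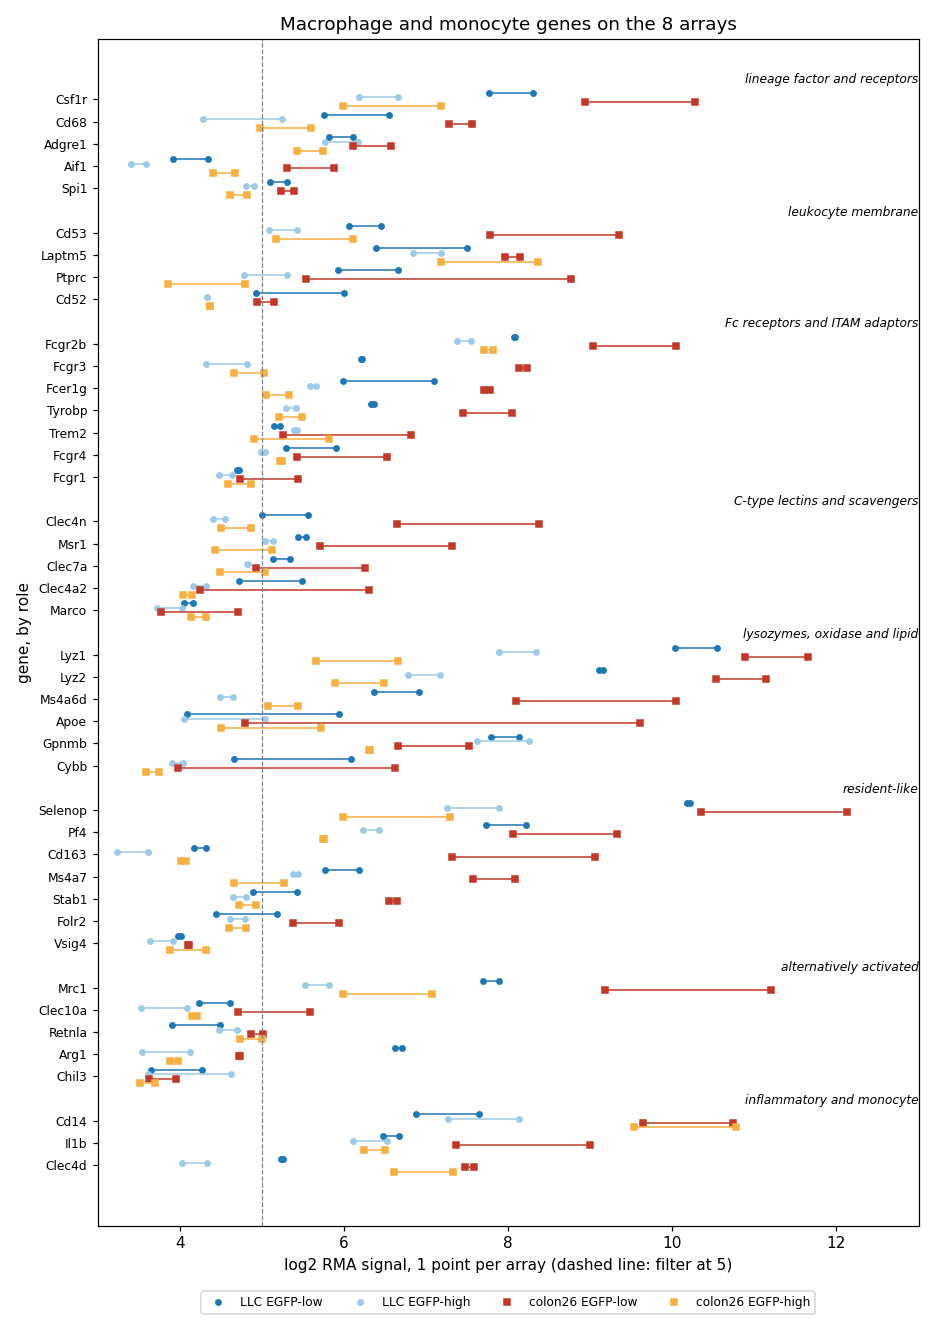
Log2 RMA signal of the 42 members with a probe set (rows, by role) on each of the 8 arrays, with 2 points per group joined by a line and the filter at 5 dashed. The colon26 low arrays lie highest for most members, Arg1 is highest in LLC low cells, and the 2 sorts of colon26 overlap for Cd14.

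Among the lineage genes, 2 of 5 fell in LLC and 4 of 5 in colon26. Csf1r, the receptor for the macrophage growth factor, had log2 signals of 8.30 and 7.77 on the low and 6.66 and 6.18 on the high arrays of LLC, against 10.28 and 8.94 (low) and 7.18 and 5.98 (high) for colon26. The low arrays were above the high arrays in each line, without overlap. It fell by 1.61 in LLC (SE 0.18, limma adjusted p = 0.000532), which is 3.06-fold, and fell by 3.03 in colon26 (SE 0.18, adjusted p = 8.15e-06), which is 8.18-fold. The second of its 3 probe sets changed by -0.60 in LLC without passing (limma adjusted p = 0.0817) and fell by 1.94 in colon26 (adjusted p = 0.000125), and the third changed by 0.17 and -0.40. The call for Csf1r in LLC thus depended on the probe set. The glycoprotein Cd68 of phagocyte lysosomes fell by 1.39 in LLC (limma adjusted p = 0.00349) and fell by 2.14 in colon26 (adjusted p = 0.000582). Its arrays read 5.75 and 6.55 (low) and 4.28 and 5.24 (high) for LLC, then 7.56 and 7.28 (low) and 4.97 and 5.60 (high) for colon26, with no overlap of the sorts. Adgre1, which encodes F4/80, a classical marker of mouse macrophages, was at 6.11 and 5.81 in low and 6.17 and 5.77 in high cells of LLC, which overlap. Its change was 0.01 in LLC (95% confidence interval -0.38 to 0.41), and it fell by 0.75 in colon26 (limma adjusted p = 0.0434), a call that ended in 10 of the alternative settings tried. Aif1, an actin-binding protein of macrophages, fell by 1.05 in colon26 (adjusted p = 0.0104) and had a change of -0.63 in LLC (adjusted p = 0.0538). It was above 5 in colon26 low cells alone, at 5.87 and 5.30, and read 4.34 and 3.91 in LLC low cells. Spi1 stayed between 4.61 and 5.39 on all arrays, close to the filter, with changes of -0.35 and -0.59 that did not pass in either line.

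Of the membrane genes shared with other leukocytes, 2 of 4 fell in each line. The tetraspanin Cd53 went from 6.45 and 6.06 to 5.43 and 5.08 in LLC, and from 9.35 and 7.78 to 6.11 and 5.17 in colon26. It fell by 1.00 in LLC (SE 0.20, limma adjusted p = 0.0102) and fell by 2.92 in colon26 (SE 0.20, adjusted p = 2.36e-05). Ptprc, the pan-leukocyte phosphatase CD45, was at 8.77 and 5.54 in the low but 4.79 and 3.85 in the high cells of colon26. It was thus below the filter on both high arrays of colon26, and its 2 low arrays lay far apart. In colon26 Ptprc fell by 2.83 (SE 0.40, limma adjusted p = 0.00338), and its change in LLC, from 6.65 and 5.92 to 5.30 and 4.78, was -1.24 (adjusted p = 0.0768). Cd52, a small surface glycoprotein of leukocytes, fell by 1.14 in LLC (adjusted p = 0.0144), from 4.93 and 6.00 to 4.33 on both high arrays, and changed by -0.68 in colon26 (adjusted p = 0.192).

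Laptm5, a lysosomal membrane protein of blood cells, is a member whose 5 probe sets disagreed. The one with the highest mean read 7.50 and 6.39 on the low and 7.18 and 6.84 on the high arrays of LLC, against 8.14 and 7.96 (low) and 8.36 and 7.18 (high) for colon26, with changes of 0.06 and -0.28. The second read 6.03 and 6.75 in LLC low but 4.45 and 4.71 in LLC high cells, and 7.84 and 7.04 against 4.03 and 4.56 in colon26. Its changes were -1.81 (limma adjusted p = 0.00157) and -3.15 (adjusted p = 4.51e-05). The remaining probe sets changed by between -0.56 and 0.10, so the call for Laptm5 depended on the probe set.

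Of the Fc receptors and their signalling adaptors, 3 of 6 tested fell in LLC and 4 of 6 in colon26. Fcgr3, a low-affinity activating receptor for IgG, was at 6.21 and 6.22 on the low and 4.31 and 4.81 on the high arrays of LLC, against 8.23 and 8.13 (low) and 4.66 and 5.02 (high) for colon26. Replicates differed by at most 0.50 in any group, less than the distance between sorts. Fcgr3 fell by 1.65 in LLC (SE 0.20, limma adjusted p = 0.000887) and fell by 3.34 in colon26 (SE 0.20, adjusted p = 1.07e-05), or 10.1-fold. Tyrobp, the ITAM adaptor DAP12, fell by 1.00 (limma adjusted p = 0.00649) and fell by 2.40 (adjusted p = 5.18e-05), with low arrays at 6.33 and 6.36 in LLC and 8.04 and 7.45 in colon26 and all high arrays between 5.20 and 5.48. Fcer1g, the common Fc receptor gamma chain, fell by 0.93 (adjusted p = 0.0334) and fell by 2.55 (adjusted p = 0.000272), from 5.99 and 7.10 to 5.58 and 5.66 in LLC and from 7.78 and 7.71 to 5.33 and 5.05 in colon26. For both adaptors every low array was above every high array of its line. Fcgr2b, the inhibitory IgG receptor, fell by 1.78 in colon26 (adjusted p = 0.00217) and changed by -0.61 in LLC (adjusted p = 0.12). It read 8.08 and 8.07 (low) and 7.37 and 7.55 (high) for LLC, then 10.05 and 9.03 (low) and 7.81 and 7.71 (high) for colon26. Among its 5 probe sets, those ranked 2 and 3 by mean changed by -2.17 and -1.54 in LLC and by -4.47 and -3.76 in colon26, more than the one used. The second passed in both lines (limma adjusted p = 0.00143 in LLC and 6.31e-06 in colon26), so Fcgr2b is without a call in LLC only on the probe set used. Fcgr2b and Fcgr3 are close in sequence over their ligand-binding part, and their signals may not be separable on every probe set. Trem2, a lipid receptor that signals through Tyrobp, had changes of 0.22 and -0.69, and Fcgr4, another activating IgG receptor, had -0.59 and -0.75. Neither passed in either line. Fcgr1, the high-affinity IgG receptor, was on the probe set used above 5 on 1 array, at 5.44 in colon26 low cells. Its second probe set read 4.77 and 5.13 on the low and 3.34 and 4.01 on the high arrays of LLC, against 5.61 and 4.88 (low) and 4.02 and 4.30 (high) for colon26, changes of -1.28 and -1.09 that are given without a test.

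Among the lectins and scavenger receptors 0 of 4 tested passed in LLC (2 at an unadjusted p under 0.05 in limma) and 2 of 4 fell in colon26. Clec4n (dectin-2, a lectin that binds fungal mannans) was at 5.56 and 5.0 on the low and 4.55 and 4.40 on the high arrays of LLC, against 8.38 and 6.64 (low) and 4.87 and 4.50 (high) for colon26. High cells of both lines were under 5, the level of the filter. Clec4n fell by 2.82 in colon26 (limma adjusted p = 0.0004) and changed by -0.81 in LLC (adjusted p = 0.103). Msr1, a scavenger receptor for modified lipoproteins, fell by 1.73 in colon26 (adjusted p = 0.00242), from 7.31 and 5.70 to 5.12 and 4.42, and changed by -0.40 in LLC. The scavenger receptor Marco had a highest signal of 4.70. Clec7a (dectin-1, a beta-glucan receptor) and Clec4a2, an inhibitory lectin, changed by -0.83 and -1.19 in colon26 and by -0.41 and -0.87 in LLC, without passing.

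The 2 lysozyme genes, whose product digests bacterial walls, had the largest falls of all tested members in colon26. Lyz2 was at 9.16 and 9.11 on the low and 6.78 and 7.17 on the high arrays of LLC, against 11.14 and 10.53 (low) and 6.49 and 5.89 (high) for colon26. Lyz2 fell by 2.16 in LLC (SE 0.19, limma adjusted p = 0.000166), or 4.48-fold, and fell by 4.64 in colon26 (SE 0.19, adjusted p = 1.09e-06) or 25.0-fold. Lyz1 went from 10.54 and 10.03 to 8.34 and 7.89 in LLC, and from 11.65 and 10.88 to 6.65 and 5.66 in colon26. In each line the sorts of both genes were well apart. Lyz1 fell by 2.17 in LLC (SE 0.18, adjusted p = 0.000122) and fell by 5.11 in colon26 (SE 0.18, adjusted p = 4.85e-07). The probe set behind this Lyz1 value is 1 of 2 with the suffix that Affymetrix gives to sets able to read other transcripts, and the other of these changed by -2.06 and -4.82. The remaining Lyz1 probe set, without that suffix, stayed between 3.18 and 4.57 on all 8 arrays, with changes of -0.09 and -0.10. The change given for Lyz1 therefore cannot be told apart from that of Lyz2.

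Ms4a6d, a membrane protein of monocytes and macrophages, followed the lysozymes. It went from 6.91 and 6.36 to 4.64 and 4.49 in LLC, and from 10.05 and 8.10 to 5.44 and 5.07 in colon26. It fell by 2.07 (SE 0.31, limma adjusted p = 0.00221) and fell by 3.82 (SE 0.31, adjusted p = 8.41e-05). Cybb, the catalytic subunit of the phagocyte oxidase, was at 6.62 and 3.97 in the low but 3.74 and 3.58 in the high cells of colon26. In LLC it was at 6.08 and 4.66 in low and 4.03 and 3.90 in high cells. In both lines the low array numbered 1 stood well above the others, and the changes of -1.40 and -1.63 did not pass (limma adjusted p = 0.0895 and 0.103).

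Apoe, an apolipoprotein made by many macrophages, was at 4.09 and 5.94 on the low and 4.05 and 5.04 on the high arrays of LLC, against 4.79 and 9.60 (low) and 4.50 and 5.72 (high) for colon26. It was higher on the array numbered 2 in all 4 groups, by 4.81 in colon26 low cells, whereas number 2 minus number 1 there was -2.65 for Cybb and -3.23 for Ptprc. Of the 37 tested members, 15 were lower on number 2 in all 4 groups and 4 were higher. The numbers also differ in the 3′ to 5′ difference given above, whose part in these shifts was not tested. The change of Apoe was -0.47 in LLC and -2.09 in colon26 and did not pass (limma adjusted p = 0.694 and 0.102). Gpnmb, a lysosomal glycoprotein of macrophages that some tumour cells also make, was at 7.79 and 8.13 in low and 7.62 and 8.25 in high cells of LLC, which overlap, and changed by -0.02 in LLC (95% confidence interval -0.52 to 0.48). In colon26 Gpnmb was at 6.66 and 7.52 in low and 6.31 and 6.30 in high cells, a change of -0.79 that did not pass (adjusted p = 0.1).

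**Figure D2:**
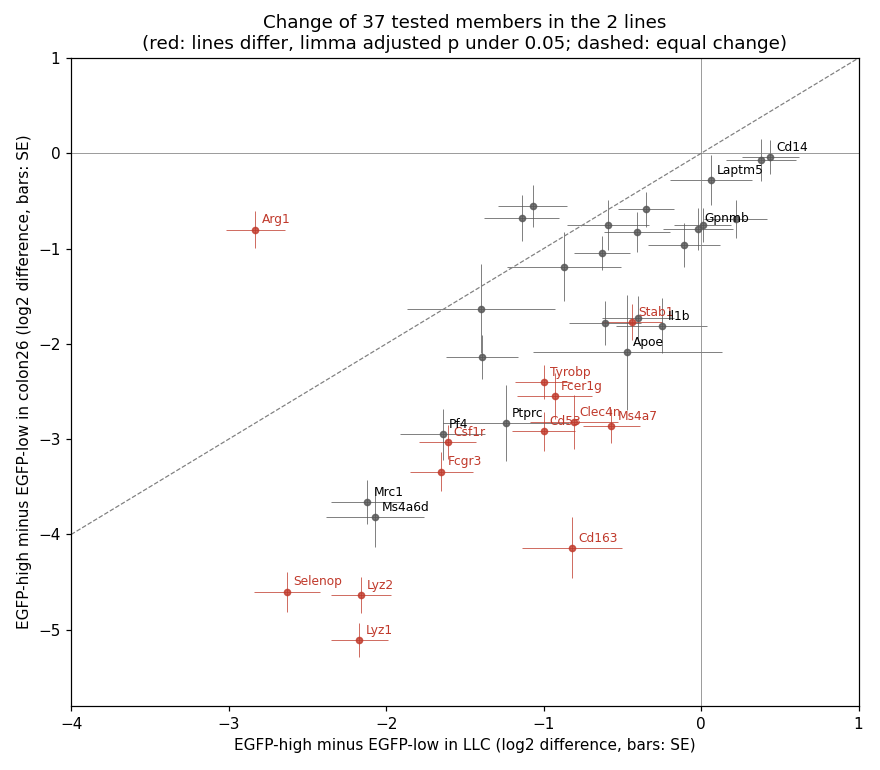
Change of the 37 tested members, EGFP-high minus EGFP-low in log2 units, in LLC (horizontal) and colon26 (vertical), with standard errors from the paired limma fit. Most points lie under the dashed line of equal change, Cd163 and the lysozymes farthest from it, and Arg1 lies above it.

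Of 6 resident-like genes tested, 5 fell in colon26 (median -2.90 over the 6) and 2 in LLC (median -0.70). Cd163 was at 9.06 and 7.31 in colon26 low cells but at 4.07 and 4.01 in colon26 high cells. In LLC it was at 4.17 and 4.32 in low and 3.23 and 3.61 in high cells, so all 6 arrays other than those of colon26 low cells were under the filter. In colon26 Cd163 fell by 4.14 (SE 0.32, limma adjusted p = 5.18e-05), or 17.7-fold, and its LLC change of -0.82 did not pass (adjusted p = 0.135). Selenop, a secreted selenium transport protein, was high in the low cells of both lines, at 10.22 and 10.18 in LLC and 12.13 and 10.35 in colon26. It was at 7.89 and 7.25 in LLC high and 7.29 and 5.99 in colon26 high cells. Selenop fell by 2.63 in LLC (SE 0.21, limma adjusted p = 0.000112) and fell by 4.60 in colon26 (SE 0.21, adjusted p = 2.01e-06). Pf4, a chemokine of platelets and of some resident macrophages, fell by 1.64 (limma adjusted p = 0.00361) and fell by 2.95 (adjusted p = 0.000217). Its low arrays read 7.73 and 8.21 in LLC and 9.33 and 8.06 in colon26, above the high arrays at 6.23 and 6.43 in LLC and 5.74 and 5.75 in colon26.

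Ms4a7, a membrane protein of macrophages related to Ms4a6d, was at 6.18 and 5.76 on the low and 5.44 and 5.37 on the high arrays of LLC, against 8.08 and 7.57 (low) and 5.27 and 4.66 (high) for colon26. Sorts did not overlap in either line, but the distance was larger in colon26. Ms4a7 fell by 2.86 in colon26 (SE 0.18, limma adjusted p = 1.48e-05), and its change of -0.57 in LLC did not pass (adjusted p = 0.0774). Stab1 fell by 1.77 in colon26 (limma adjusted p = 0.00053), from 6.55 and 6.64 to 4.72 and 4.93. In LLC Stab1 was at 4.89 and 5.43 in low and 4.64 and 4.80 in high cells, a change of -0.44 (adjusted p = 0.168). Folr2 was at 5.38 and 5.94 in colon26 low cells and at or under 5.18 on the other arrays, and its change of -0.96 in colon26 did not pass (adjusted p = 0.0518). Vsig4, a complement receptor of resident macrophages, stayed between 3.63 and 4.32 on all arrays.

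The genes of alternative activation did not move as a group. Arg1 was at 6.62 and 6.70 on the low and 3.53 and 4.12 on the high arrays of LLC, against 4.73 and 4.72 (low) and 3.88 and 3.98 (high) for colon26. Only LLC low cells were above the filter. Arg1 fell by 2.83 in LLC (SE 0.19, limma adjusted p = 6.2e-05) or 7.12-fold, and its change of -0.80 in colon26 did not pass (adjusted p = 0.0507). Mrc1 was at 7.89 and 7.69 on the low and 5.82 and 5.52 on the high arrays of LLC, against 11.20 and 9.18 (low) and 7.07 and 5.98 (high) for colon26. It fell by 2.12 in LLC (SE 0.23, adjusted p = 0.000515) and fell by 3.66 in colon26 (SE 0.23, adjusted p = 1.21e-05). Retnla, an interleukin 4 target also called Fizz1, had a highest signal of 5.01 and changes of 0.38 and -0.07 that did not pass. Chil3, which encodes the chitinase-like protein Ym1, stayed under 5 on all arrays, with a highest value of 4.62. Clec10a, a galactose-binding lectin, passed 5 only on the colon26 low array numbered 2, at 5.58.

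The 3 inflammatory and monocyte genes behaved differently from each other. Il1b, the cytokine interleukin 1 beta, was at 8.99 and 7.36 in the low but 6.50 and 6.24 in the high cells of colon26. In LLC it was at 6.47 and 6.67 in low and 6.52 and 6.11 in high cells, which overlap. Il1b fell by 1.81 in colon26 (SE 0.29, limma adjusted p = 0.00677) and changed by -0.25 in LLC (95% confidence interval -0.90 to 0.40). Cd14, the co-receptor for bacterial lipopolysaccharide, was at 6.88 and 7.64 on the low and 7.27 and 8.13 on the high arrays of LLC, against 9.64 and 10.74 (low) and 9.53 and 10.77 (high) for colon26. The sorts overlapped in each line, with changes of 0.44 (95% confidence interval 0.05 to 0.84, adjusted p = 0.147) and -0.04 (-0.43 to 0.35, adjusted p = 0.932). Clec4d, a lectin receptor of monocytes and neutrophils, was at 5.26 and 5.23 in low and 4.02 and 4.33 in high cells of LLC, and in LLC it fell by 1.07 (adjusted p = 0.0128). In colon26 it was at 7.58 and 7.47 in low and 6.61 and 7.33 in high cells, and its change of -0.55 did not pass (adjusted p = 0.257).

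**Figure D3:**
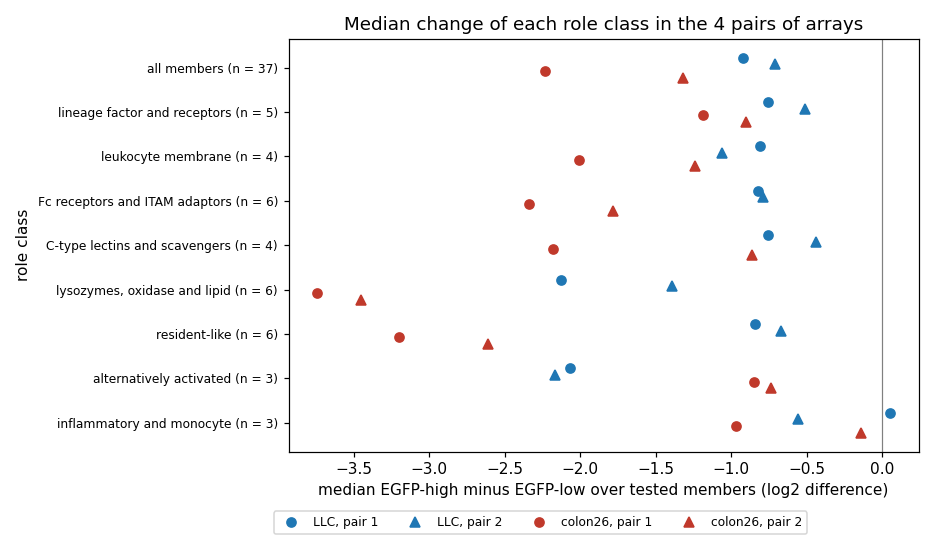
Median EGFP-high minus EGFP-low difference of the tested members of each role class (rows, log2 units) in the 4 pairs of arrays, blue for LLC and red for colon26. The resident-like median was -0.84 (pair 1) and -0.67 (pair 2) for LLC against -3.20 and -2.61 for colon26. The alternatively activated median is over 3 genes and falls on Mrc1 in LLC and on Arg1 in colon26, so its position does not describe the class as a whole.

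Whether the lines differed in these changes was tested as the LLC change minus the colon26 change. For 12 of 37 members the difference passed and was positive, meaning a smaller fall in LLC, where 0.427% of all genes were called in this direction. These 12 were Csf1r, Cd53, Fcgr3, Fcer1g, Tyrobp, Clec4n, Lyz1, Lyz2, Cd163, Stab1, Selenop and Ms4a7. For Arg1 the difference passed and was negative, -2.03 (SE 0.27, limma adjusted p = 0.0088), where 0.985% of all genes were called. By sign alone, 3 of the 37 differences were negative, those of Arg1, Clec4d (-0.52) and Cd52 (-0.45). Cd163 had a difference of 3.32 (SE 0.45, limma adjusted p = 0.00902), Ms4a7 of 2.29 (SE 0.26, adjusted p = 0.0041) and Lyz2 of 2.48 (SE 0.27, adjusted p = 0.003). By class, 4 of 6 resident-like genes passed (Cd163, Stab1, Selenop and Ms4a7), 1 of 3 alternatively activated genes (Arg1) and 0 of 3 inflammatory genes (1 at an unadjusted p under 0.05 in limma). Mrc1 had a difference of 1.54 (adjusted p = 0.0504). For Il1b it was 1.55 (95% confidence interval 0.63 to 2.47, adjusted p = 0.121), for Cd14 0.48 and for Clec4d -0.52.

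These differences between the lines depended on the processing. Without the block 0 members were called in limma (10 at an unadjusted p under 0.05). Of the 12 positive calls, 1 remained after quantile normalization (Lyz1, 2.91, limma adjusted p = 0.0398), and 6 members were called in this direction with no filter. The Lyz1 change cannot be told apart from that of Lyz2, which was not called after quantile normalization. Without the colon26 pair numbered 1, and likewise without that numbered 2, 0 members were called in limma (23 and 25 at an unadjusted p under 0.05), with 1 residual degree of freedom left. Without the former pair the difference was 2.48 for Cd163 and -2.09 for Arg1, without the latter 4.16 and -1.98. Fits without an LLC pair left as many residual degrees of freedom, and some of the calls for the difference passed there. Of the 12, Clec4n, Stab1 and Ms4a7 had a mean under 6 in LLC low cells (5.28, 5.16 and 5.97), close to the filter. Cd163 had a mean of 4.24 there, under the filter, so the size of its LLC change is limited by background. The same holds for the colon26 change of Arg1, whose mean in colon26 low cells was 4.73.

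Levels of the low cells were then compared between the lines, without a block, since a pair lies within a line. In EGFP-low cells 13 of 37 members were lower in LLC than in colon26 and 1 was higher, where 8.19% and 5.81% of all genes were called. With the replicate number as a term shared by the lines these were 24 and 2. That fit called 3065 of all genes lower and 2556 higher, against 997 and 708 without the term. Passing with the shared number was therefore common over all genes, and the share higher was larger over all genes than among the members. The median LLC minus colon26 difference of the 37 was -1.20, against -0.07 over all genes. Cd163 was lower in LLC (-3.94, SE 0.54, limma adjusted p = 0.00606), and among resident-like genes Ms4a7 (-1.85, adjusted p = 0.0148) and Stab1 (-1.43, adjusted p = 0.0175) were lower as well. Selenop differed by -1.04 (95% confidence interval -2.67 to 0.59, adjusted p = 0.373, and 0.0455 with the shared number) and Pf4 by -0.72 (-1.77 to 0.33), and Folr2 by -0.85 (adjusted p = 0.153, and 0.0191 with the shared number). All 6 tested resident-like genes had a negative difference, from -3.94 to -0.72.

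Arg1 ran the other way and was higher in LLC low cells by 1.93 (SE 0.26, limma adjusted p = 0.00576). The LLC low arrays of Cd163 and the colon26 low arrays of Arg1 were under 5, near background, so the sizes of these differences are bounded from below. Mrc1, of the same class, differed by -2.40 (SE 0.68, adjusted p = 0.0692, and 0.00192 with the shared number), and Retnla by -0.74 (adjusted p = 0.138, and 0.0315 with the shared number). Of the 3 alternatively activated genes tested, Arg1 was called higher in LLC, and the 2 others lay on the colon26 side of 0 without passing when no block was used. Arg1 passed the filter through LLC low cells alone, and Retnla was near background on all arrays, with a highest signal of 5.01. These signs therefore do not describe the class as a whole. Of the 3 inflammatory genes 2 were lower in LLC, Cd14 (-2.93, SE 0.60, adjusted p = 0.0254) and Clec4d (-2.28, SE 0.30, adjusted p = 0.00495). Il1b differed by -1.61 without passing (SE 0.52, adjusted p = 0.0964, and 0.00899 with the shared number). Of the lineage genes Aif1 was lower in LLC (-1.46, adjusted p = 0.0252), and Csf1r (-1.57, adjusted p = 0.131) and Cd68 (-1.27, adjusted p = 0.118) passed only with the shared number (0.00153 and 0.00794). The others that were lower in LLC were Cd53 (-2.31), Fcgr2b (-1.46, and -1.98 without passing on the second probe set, adjusted p = 0.189), Fcgr3 (-1.97), Tyrobp (-1.40), Clec4n (-2.23), Lyz2 (-1.70) and Ms4a6d (-2.44). With 1 of the 4 low arrays left out, 3 to 14 members were lower in LLC (3 without the LLC low array numbered 1, 5 without that numbered 2 and 6 without the colon26 low array numbered 1), and the Arg1 call ended without the LLC low array numbered 2.

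In EGFP-high cells the lines differed in fewer members. Lower in LLC was 1 of 37, Clec4d, and higher were 2, Lyz1 and Gpnmb, where 7.01% and 4.33% of all genes were called. With the shared number these were 3 (Clec4d, Cd14 and Aif1) and 3 (Lyz1, Gpnmb and Lyz2). That fit called 2866 of all genes lower and 1907 higher, against 853 and 527 without it. Both shares were larger over all genes than among the members. The median difference of the 37 was -0.05, against -0.09 over all genes. Clec4d was lower in LLC high cells (-2.80, SE 0.30, limma adjusted p = 0.00202), where its LLC arrays were under 5. Cd14 had a difference of -2.45 there (SE 0.60, adjusted p = 0.0508, and 2.66e-05 with the shared number). For both genes the difference between the sorts in this respect is the LLC change minus the colon26 change given above, which did not pass. Gpnmb was higher in LLC high cells by 1.63 (SE 0.37, adjusted p = 0.0392) and Lyz1 by 1.96 (SE 0.45, adjusted p = 0.0401). Both calls were fragile. That for Gpnmb ended with any 1 of the 4 high arrays left out, with only these 4 arrays fitted and with the mean of all probe sets, where the difference was 0.79. That for Lyz1 ended without 3 of the 4 arrays in turn (it passed without the colon26 high array numbered 1), with only these 4 arrays, after quantile normalization, on the second probe set (1.43) and with the mean of all probe sets (0.79). Lyz2 had a difference of 0.78 (95% confidence interval -0.01 to 1.58) that passed with the shared number (limma adjusted p = 0.0437), and Aif1 one of -1.04 that did so too (adjusted p = 0.00232). Cd163, Arg1 and Il1b differed by -0.62, -0.10 and -0.05 there, without passing. Cd163 (means of 3.42 in LLC and 4.04 in colon26) and Arg1 (3.83 and 3.93) were under 5 in the high cells of both lines, near background. Their small differences therefore do not show that the lines were alike.

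**Figure D4:**
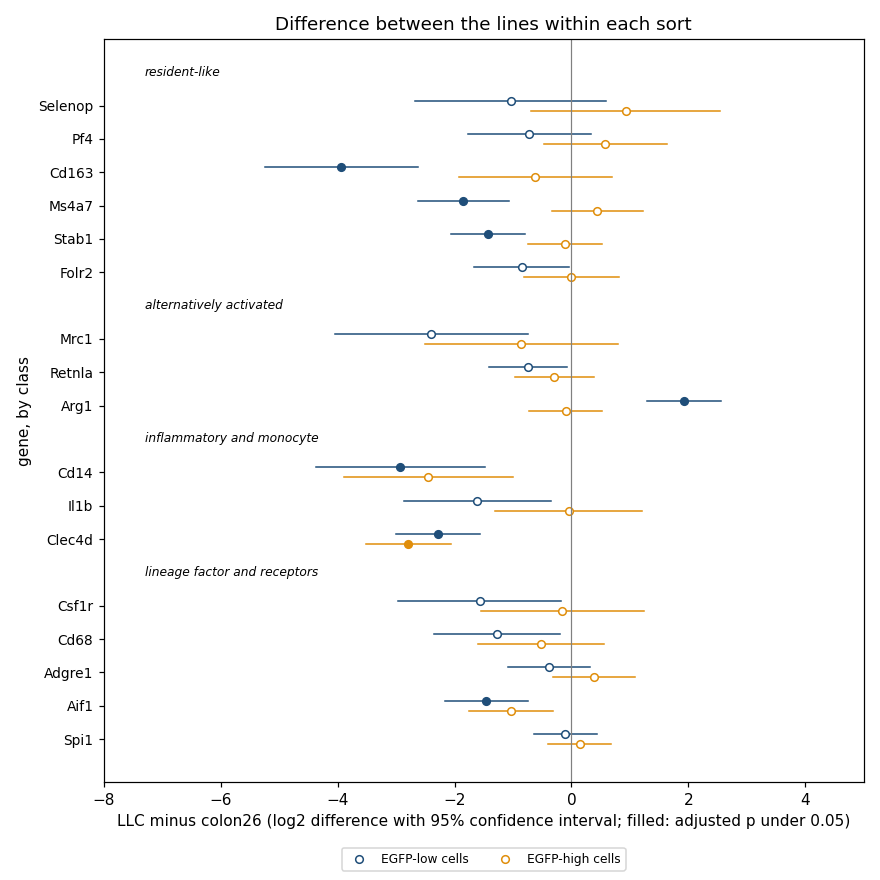
LLC minus colon26 difference (log2 units, unadjusted 95% confidence interval from limma with 4 group means) for the tested members of 4 classes in EGFP-low (dark) and EGFP-high (orange) cells, filled where the adjusted p was under 0.05. Arg1 is the gene of these classes to the right of 0 in low cells, and Cd14 and Clec4d stay to the left of 0 in both sorts.

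Other genes of the macrophage pathway moved in part with the members. Their counts stand beside 6.04% of all genes that fell and 4.98% that rose in LLC, and 1.58% and 2.18% in colon26. Of 13 tested growth factors, receptors and transcription factors of macrophages, 3 fell in LLC (Id3, Cebpb and Maf) and 2 in colon26 (Csf2rb and Irf8), and 0 rose in either line. Maf changed alike in both, by -1.71 in LLC (limma adjusted p = 0.0339) and by -1.70 in colon26 without passing (adjusted p = 0.0708). Csf1, the ligand of Csf1r, was at 9.57 and 9.78 on the low and 9.56 and 9.86 on the high arrays of LLC, against 8.46 and 7.47 (low) and 8.14 and 7.62 (high) for colon26. It was higher in LLC by 1.71 in low (limma adjusted p = 0.0348) and higher by 1.83 in high cells (adjusted p = 0.0306), the opposite side to its receptor's difference of -1.57 in low cells. Of 16 other surface and complement genes tested, 5 fell in LLC and 6 in colon26. The complement gene C1qc, part of the C1q molecule that tissue macrophages make, fell by 1.08 in LLC (adjusted p = 0.0103) and fell by 2.93 in colon26 (adjusted p = 4.14e-05), and C1qa, C1qb and the pore-forming Mpeg1 fell in both lines. Of 14 inflammatory mediators and monocyte genes tested, 6 fell in LLC and 4 in colon26. The prostaglandin synthase Ptgs2 fell by 2.22 in LLC (adjusted p = 0.000533), and the neutrophil chemokine Cxcl2 fell by 2.63 in colon26 (adjusted p = 0.00123). The cytokine Il6 changed by -1.47 in LLC (adjusted p = 0.00135) and by -1.45 in colon26 (adjusted p = 0.00293), and its LLC minus colon26 difference was -4.61 in low (adjusted p = 0.000789) and -4.62 in high cells (adjusted p = 0.000682).

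Markers of other cell types moved in the same comparisons, where 6.04% of all genes tested fell in LLC and 1.58% in colon26. Of 9 fibroblast markers 8 fell in LLC and 3 in colon26, and their summed linear signal was 31619 to 47911 in LLC low, 10234 to 10793 in LLC high, 39725 to 48348 in colon26 low and 33436 to 34836 in colon26 high cells. Of 5 endothelial markers tested, of 7 on the array, 0 fell in LLC (2 at an unadjusted p under 0.05 in limma) and 3 in colon26, with sums of 154 to 214, 130 to 147, 411 to 434 and 173 to 198 in the same order. Tek was under 5 on all arrays. Of 6 neutrophil markers tested, of 9 on the array, 2 fell in LLC and 3 in colon26. Sums over the 9 were 348 to 388, 254 to 267, 2156 to 2371 and 670 to 787, and S100a8 made up most of those in colon26. That gene read 10.85 and 10.99 in colon26 low but 6.93 and 6.96 in LLC low cells. Between the low cells 5 of the 6 were on the colon26 side by sign. S100a9 had the higher mean in LLC low cells (6.29 against 5.25). Ngp, Ltf and Cxcr2 were under 5 on all arrays. For the 42 members the same sum was 5891 to 6379, 2478 to 2523, 12423 to 22459 and 3114 to 3591. It is weighted to the genes of highest signal, such as Lyz1, Lyz2 and Selenop in low cells and Cd14 in colon26 high cells. Lyz1 and Lyz2, whose changes cannot be told apart, are both counted. Of the dendritic (3 tested), T and NK (4), B (2) and epithelial (4) markers 0 were called in either line in limma, and 1 (a T and NK marker in colon26) had an unadjusted p under 0.05. Of 2 mast cell markers tested 0 and 1 fell, of 2 osteoclast markers 1 fell in each line (the collagenase Ctsk), and both erythroid markers on the array were under 5. Clec4d and Il1b are also made by neutrophils. The part of these cell types in the members' changes was not tested.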

How the data were processed

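RNA of 8 sorted cell samples (4 groups, 2 arrays each) was measured on Affymetrix mouse arrays. The deposited log2 values per probe set come from RMA, which the submitters' processing notes name without options, and were used unchanged, so the precision is limited by the number of arrays. The table has 45101 probe sets: 64 controls, 34945 with 1 gene symbol in the platform annotation, 932 with several and 9160 with none, and symbols of 34741 were matched to RefSeq by gene ID. Each gene was taken on the probe set with the highest mean, and genes above 5 on at least 2 arrays were tested with limma 3.58.1 in R 4.3.3 (lmFit and eBayes, Benjamini-Hochberg over all 12177 genes). Plots were made in Python 3.11.15 (matplotlib 3.10.9).

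High minus low contrasts and their difference between the lines were fitted on all 8 arrays with the replicate number within a line as a block (2 residual and 8.25 prior degrees of freedom). LLC minus colon26 contrasts were fitted as 4 group means (4 residual and 2.34 prior degrees of freedom). The pairing rests on same-numbered arrays deviating together: over all genes, the number 2 minus number 1 differences of low and high cells correlated at 0.89 in LLC and 0.84 in colon26. They also correlated at 0.74 to 0.84 between the lines, so the number may mark a step shared by both. The members and lists were chosen with earlier results of these data known. All members are accounted for, and values on every array are given for those with the largest changes in a class and for those that differed between the lines. The fit was tested on simulated data. Alternatives were the block, the filter, the arrays in the fit, the scaling, the moderation, the probe set of a gene and leaving out each pair or array.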

Additional observations from a re-analysis of the deposited data

Results flagged for a closer look

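For 13 members the change from EGFP-low to EGFP-high cells differed between the lines by a test of the difference itself, the LLC change minus the colon26 change, in the paired limma fit. It was positive, a smaller fall in LLC, for Cd163 (3.32), Lyz1 (2.94), Lyz2 (2.48), Ms4a7 (2.29), Clec4n (2.02), Selenop (1.97), Cd53 (1.92), Fcgr3 (1.69), Fcer1g (1.62), Csf1r (1.42), Tyrobp (1.40) and Stab1 (1.33), and negative for Arg1 (-2.03). Of the 12 positive ones, Fcgr3, Clec4n, Cd163, Stab1 and Ms4a7 averaged under 5 in EGFP-high cells of LLC, colon26 or both. Arg1 averaged 4.73 in colon26 low, 3.93 in colon26 high and 3.83 in LLC high cells, all under 5. It passed the filter through LLC low cells alone, so the size of its colon26 change is limited by background. Cd163 passed through colon26 low cells alone and averaged 4.24 in LLC low cells, so the same holds for its LLC change. The lines also differ in the weeks of growth (4 for LLC and 2 for colon26), which cannot be told apart from the line.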

How the results depend on the processing

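Without the replicate block limma called 0 members in LLC, 2 in colon26 and 3 as a mean of the lines, and 0 in either direction for the difference between the lines (all genes: 0, 3, 7 and 0 calls, against 1342, 459, 1588 and 172; genes with an unadjusted p under 0.05: 794, 438, 982 and 270). With the replicate number as a block shared by the lines, 24 members were lower and 2 higher in LLC low cells and 3 lower in LLC high cells (5621 and 4773 of all genes, against 1705 and 1380). Quantile normalization left 1 positive and 0 negative calls for the difference between the lines (4 of all genes). It left 1 member higher in LLC high cells, and 152 calls over all genes in colon26. It moved the higher and lower calls over all genes in colon26 from 266 and 193 to 43 and 109, and median centring moved them to 539 and 232 (771). Median centring gave 374 calls for the difference between the lines, and in LLC low against colon26 low cells 872 higher and 724 lower, against 708 and 997, with the median of all genes moving from -0.07 to 0.12. No filter left 6 positive differences (56 of all genes) and 3240 calls over all genes between low cells. A filter of 7, which leaves fewer genes, gave 17 members as a mean of the lines, 7 lower and 0 higher in LLC low cells and 0 negative differences (272 and, between low cells, 955 of all genes). With only the 4 arrays of a contrast, 4 members were lower in LLC low cells (662 of all genes) and 0 higher in LLC high cells (861). A trend with robust moderation gave 320 calls for the difference between the lines, and the mean of all probe sets 0 members higher in LLC high cells. On the second probe set, which many genes lack, the members lower were 5 in LLC, 8 in colon26 and 8 as a mean, those with a difference between the lines 5 and 0, those lower and higher in LLC 2 and 0 in low and 0 and 0 in high cells, and the calls over all genes 553, 136, 575, 51, 480 and 416.

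Leaving out 1 pair, members lower ranged from 12 to 15 in LLC, 16 to 26 in colon26 and 22 to 28 as a mean, and positive and negative differences from 0 to 9 and from 0 to 1. Leaving out 1 array, members lower and higher in LLC low cells ranged from 3 to 14 and from 0 to 1, and in LLC high cells members higher from 0 to 1. Calls over all genes ranged from 396 to 943, 59 to 552, 509 to 1109, 0 to 175, 622 to 1670 and 628 to 703, in the order LLC, colon26, mean, difference, low cells and high cells. Single members were followed for their changes within each line and for every call. Resident-like, alternatively activated and inflammatory genes were also followed in low cells and in the difference between the lines. Other results that had not passed were not followed. Among those followed, signs turned only for changes that had not passed. In LLC they turned with pair 1 or pair 2 left out for Adgre1 (-0.04 to 0.07), Laptm5 (-0.32 to 0.45), Gpnmb (-0.17 to 0.12), Folr2 (-0.56 to 0.35), Retnla (-0.02 to 0.78) and Il1b (-0.56 to 0.05). They also turned there for Gpnmb under quantile normalization (0.01) and the mean of probe sets (0.02), and for Laptm5 with the mean (-0.32) and the second probe set (-1.81). In colon26 they turned likewise for Laptm5 (-0.78 to 0.23), Retnla (-0.28 to 0.14) and Cd14 (-0.11 to 0.03), for Cd14 under median centring (0.04), and for Trem2 on the second probe set (0.10). The cause was not tested. Of the values followed for single members, 1328 kept direction and side of the threshold, 259 no longer passed, 56 newly passed and 15 turned sign.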
